A study of Homo sapiens and Mus musculus with 20 samples.

Results

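The clustered protocadherins are cell-surface adhesion proteins encoded by 3 neighbouring gene clusters, alpha, beta and gamma, on the long arm of human chromosome 5. Their genes were picked out of the RNA-seq tables of IMR90 cells by symbol, and 43 of the 53 symbols of the family were listed among 17554 genes in at least 1 table. IMR90 is a line of human fetal lung fibroblasts, with the genotype given as WT for every library and nothing labelled for the controls beyond the treatment None. A485 blocks p300, an enzyme that adds acetyl and lactyl groups to histones, and the cells that received it were set against the untreated group Control2. MS-275 blocks class I histone deacetylases and had Control3 as its untreated group, and pyruvate, an end product of glycolysis, had Control6. The paper describes its pyruvate experiment as done on senescent cells, which the sample titles do not state. Control6 may therefore differ in cell state from Control2 and Control3. The study set these treatments beside each other as ways to alter histone lactylation, a lactate-derived mark on histone lysines. Each group held 2 libraries. Nothing in the labels says that the libraries of a group came from separate cultures, so the p-values measure only the spread between these libraries. IMR90 is 1 line, and each treatment was compared with a control of its own.

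In the alpha and gamma clusters each gene has a large first exon of its own, with its own promoter, which is spliced to a few constant exons shared by the whole cluster. The beta genes have single coding exons and no constant part. In neurons each cell switches on a small and largely random set of these promoters, helped by CTCF and cohesin, and the resulting combination of proteins lets a neuron tell its own branches from those of others. The C-type genes at the end of the alpha and gamma clusters are expressed more broadly than the other isoforms.

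On hg38, in GENCODE v44 gene models, the alpha cluster lay on chromosome 5 at 140786136 to 141012347, the beta cluster at 141051374 to 141249365 and the gamma cluster at 141330514 to 141512977, all on the plus strand. All 15 alpha genes shared exon stretches of 59, 89 and 2721 bases, and all 22 gamma genes shared stretches of 59, 89 and 2029 bases. No exon was shared among the 16 beta genes. The median length of exon belonging to 1 gene alone was 3293 bases in alpha, 3858 in beta and 2821 in gamma. Reads in the shared exons were not credited to every gene of a cluster, because PCDHA2 and PCDHA6 were at 0 in both Control2 libraries while PCDHA7 stood at 50.3 and 63.6. The genes also resemble each other in their own exons. Of all 100-base windows of a gene's own exons, up to 25.6% in the beta cluster (PCDHB8) and up to 18.0% in the alpha cluster (PCDHA7) occurred exactly in another member. Among gamma genes the highest share was 16.7% (PCDHGB4). Values of such genes are uncertain to an unknown degree, because the treatment of reads that match more than 1 gene is not given in the sources used here. In addition, 13 of the 16 beta genes overlapped another annotated gene, and the strand setting of the counting is not given either.

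The promoters of a cluster resemble each other. RefSeq promoter windows of GRCh38.p14, from 250 bases before to 50 after each start, were found for 47 of the 53 genes. The word CGCT, the core of the conserved element of these promoters, occurred on either strand in 12 of 13 alpha windows, 14 of 14 beta windows and 25 of 25 gamma windows, against 70.0% of all 35097 windows. At the printed sites the bases beside it differed by cluster. Not every site is printed. The windows of PCDHA7, PCDHB4, PCDHB14, PCDHGB5 and PCDHGC3 held further CGCT sites on the plus strand, with flanks unlike those printed for the same gene. The printed sites are therefore a choice and do not describe every CGCT of these windows. Sequences of members described below are shown with CGCT in capitals:
PCDHA2 (chr5:140794785-140794812, plus strand): gccacatgatgtCGCTgtccaccataga
PCDHA4 (chr5:140806983-140807010, plus strand): gccacatgatgtCGCTctttaccacaaa
PCDHA6 (chr5:140827901-140827928, plus strand): gccgcatgatgtCGCTgtctaccatgaa
PCDHA7 (chr5:140834176-140834203, plus strand): gccacatgatgtCGCTctttaccgcaaa
PCDHA10 (chr5:140855845-140855872, plus strand): gccaccggatgtCGCTgtcgtccacaaa
PCDHB4 (chr5:141121727-141121754, plus strand): gacgcagggtggCGCTgcaggctaagtt
PCDHB5 (chr5:141135183-141135210, plus strand): gacgcctggtggCGCTgcaggctaagag
PCDHB7 (chr5:141172570-141172597, plus strand): aacgcaaggtggCGCTgctggctaaaaa
PCDHB14 (chr5:141223267-141223294, plus strand): gacacatggtggCGCTacaggataagac
PCDHB15 (chr5:141245318-141245345, plus strand): aacgcatggtggCGCTgcaggctaaggc
PCDHGA7 (chr5:141382653-141382680, plus strand): gactcacagcgcCGCTgttcaccaacca
PCDHGB5 (chr5:141397867-141397894, plus strand): gactctgggcgcCGCTgttggccaaagt
PCDHGC3 (chr5:141475884-141475911, plus strand): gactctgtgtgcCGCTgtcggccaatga

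With words chosen after these sequences were seen, TGTCGCT occurred in 10 of 13 alpha windows, 1 of 14 beta windows and 3 of 25 gamma windows, against 1.76% of all windows. TGGCGCT occurred in 13 of 14 beta windows, 0 of 13 alpha windows and 5 of 25 gamma windows, against 4.08% of all. GCCGCTG was found in 14 of 25 gamma windows and in none of the alpha or beta windows, against 11.1% of all. All 3 words contain or overlap CGCT and were searched on both strands. The consensus CTCF core motif, as searched here, matched in none of the alpha, beta or gamma windows and in 0.470% of all windows. The whole window of PCDHB5, the member with the smallest p-value under A485, is shown with CGCT in capitals:
PCDHB5 (chr5:141134956-141135255, plus strand): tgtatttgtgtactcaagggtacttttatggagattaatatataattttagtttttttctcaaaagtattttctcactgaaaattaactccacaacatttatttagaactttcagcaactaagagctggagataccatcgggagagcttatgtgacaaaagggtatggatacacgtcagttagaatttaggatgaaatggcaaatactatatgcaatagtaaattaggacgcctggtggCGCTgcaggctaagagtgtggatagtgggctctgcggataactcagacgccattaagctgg

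In the untreated cells the family was mostly a gamma family. The values are read counts divided by a size factor for each library, called normalised values here. They were comparable within a comparison only, since the 3 tables were normalised separately. Gamma genes held 92.3% and 89.5% of the summed normalised value of the listed members in the Control2 libraries, 92.3% and 86.7% in Control3 and 90.6% and 89.8% in Control6. Beta genes held between 7.11% and 12.04% in these 6 libraries. PCDHGC3, a C-type gamma gene, had the highest level per kilobase of own exon in each control group, at 805 ± 83.0 (SD, n = 2) in Control2. PCDHGB5 was next at 708 ± 165 per kilobase, and these neighbours did not differ beyond their spread. The median level per kilobase in Control2 was 96.4 over the 22 gamma genes, 15.4 over 15 beta genes and 0.393 over the 6 alpha genes listed. PCDHA7 was the highest alpha gene there, at 19.5 per kilobase.

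PCDHB1 and 9 of the 15 alpha symbols were not listed in the A485 table. All 43 listed members passed the filter, a mean normalised value of at least 10 over the 4 libraries. For MS-275, 39 members were listed and 36 passed, and for pyruvate all 31 listed members passed. For 5 of the 6 alpha genes and for PCDHB4 the Control2 mean was under 10, so these 6 members passed the filter only through their level under A485 and had to be higher there to be tested at all. Reads counted in the listed genes ran from 24179065 to 46971227 over the 12 IMR90 libraries, and 1 read was worth 0.843 to 1.22 normalised units. The tables listed 12013 genes for pyruvate and 16683 for A485, so these totals are not full library depths. The labelled cell type was checked against 12 fibroblast markers, among them collagens, all of which were listed, and their summed value was 556891 to 2244160 per library.

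Under A485, members of the beta cluster rose, alpha genes near 0 in untreated cells were detected, and no gamma gene was called. A member is called here when limma gave an adjusted p under 0.05 and a log2 fold change past 1 in size, on the log2(value + 1) scale. By this rule 10 members were higher, 4 of 6 alpha genes (PCDHA2, PCDHA4, PCDHA6 and PCDHA10) and 6 of 15 beta genes (PCDHB4, PCDHB5, PCDHB7, PCDHB8, PCDHB14 and PCDHB15). None of the 22 gamma genes was called in either direction. Over all 16084 genes tested, 3.31% were called higher and 7.06% lower. All 4 called alpha genes and PCDHB4 are among the members that could only be tested by being higher under A485, so their calls are a description and are not read against that share. PCDHGC4 is the reverse case, tested only through its controls. Of the 36 members whose direction the filter did not fix, 5 were called higher, all of them beta genes, of 14 such beta genes. Their median log2 fold change was 1.84 for these 14 beta genes and -0.02 for 21 gamma genes, against 0.01 over all genes, and PCDHA7 was the only such alpha gene, at 1.17. Over every listed member the medians were 3.42 for alpha, 1.91 for beta and -0.05 for gamma, and the alpha value was 2.93 with PCDHA2 and PCDHA6 set at the bound that 3 reads allow. The alpha medians over listed members had their sign set by the filter.

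Of the alpha genes, all but PCDHA7 were under 10 in both Control2 libraries. PCDHA2 had normalised values of 0 and 0 in Control2 and of 30.3 and 21.4 under A485, which is at least 7.51-fold higher than 3 reads per control library. PCDHA6 stood at 0 and 0 in Control2 and at 15.2 and 38.3 under A485, at least 7.77-fold higher by the same floor. PCDHA4 was at 4.28 and 7.34 in Control2 and at 51.4 and 79.3 under A485. For these 3 genes every A485 library lay above both control libraries. The PCDHA4 log2 fold change was 3.29 ± 0.62 (SE), with an adjusted p of 0.0250 by limma. PCDHA10 was at 1.07 and 4.90 in Control2 and at 27.8 and 57.9 under A485, with a log2 fold change of 3.56 ± 0.83 (SE) and an adjusted p of 0.0442. PCDHA7, the alpha gene already expressed in untreated cells, was at 50.3 and 63.6 in Control2 and at 110 and 151 under A485. Its libraries did not overlap, but the log2 fold change of 1.17 ± 0.42 (SE) had an adjusted p of 0.121. PCDHA3 was at 8.56 and 9.79 against 23.6 and 28.5, also without overlap, with an adjusted p of 0.178. The summed normalised value of the 6 alpha genes was 64.2 and 85.7 in Control2 and 258 and 376 under A485, a 4.23-fold difference of the means. For 5 of these 6 genes the filter fixed the direction, so the sum is a description only. PCDHA7, whose direction was free, was 2.28-fold higher in mean value.

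Each of the 15 listed beta genes had a positive log2 fold change, from 1.31 to 3.26. PCDHB5 (ENSG00000113209, at 141135206 to 141138615) had normalised values of 43.9 and 52.6 in Control2 and of 379 and 525 under A485. The A485 libraries lay far above both controls, and the log2 fold change was 3.19 ± 0.36 (SE) with an adjusted p of 0.00594. PCDHB7 (ENSG00000113212, at 141172644 to 141176383) was at 38.5 and 99.1 in Control2 and at 401 and 704 under A485, with a log2 fold change of 3.08 ± 0.54 (SE) and an adjusted p of 0.0212. PCDHB4, which the filter kept only for its A485 level, was at 5.35 and 4.90 against 37.1 and 89.1, with a log2 fold change of 3.26 ± 0.68 (SE) and an adjusted p of 0.0327. These 3 genes had the largest called changes of the cluster, and in each the groups did not overlap. PCDHB8 was at 22.5 and 29.4 in Control2 and at 135 and 225 under A485. PCDHB14, the beta gene with the highest level per kilobase in Control2, was at 140 and 252 against 647 and 876, a log2 fold change of 2.00 ± 0.36 (SE). PCDHB15 was at 94.2 and 131 against 281 and 419, and in all 3 of these genes the groups did not overlap. The other 9 beta genes were not called, with log2 fold changes of 1.31 to 2.56 and adjusted p-values of 0.0644 to 0.291. For 7 of these 9 both A485 libraries lay above both control libraries, and PCDHB3 and PCDHB13 overlapped.

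**Figure D1:**
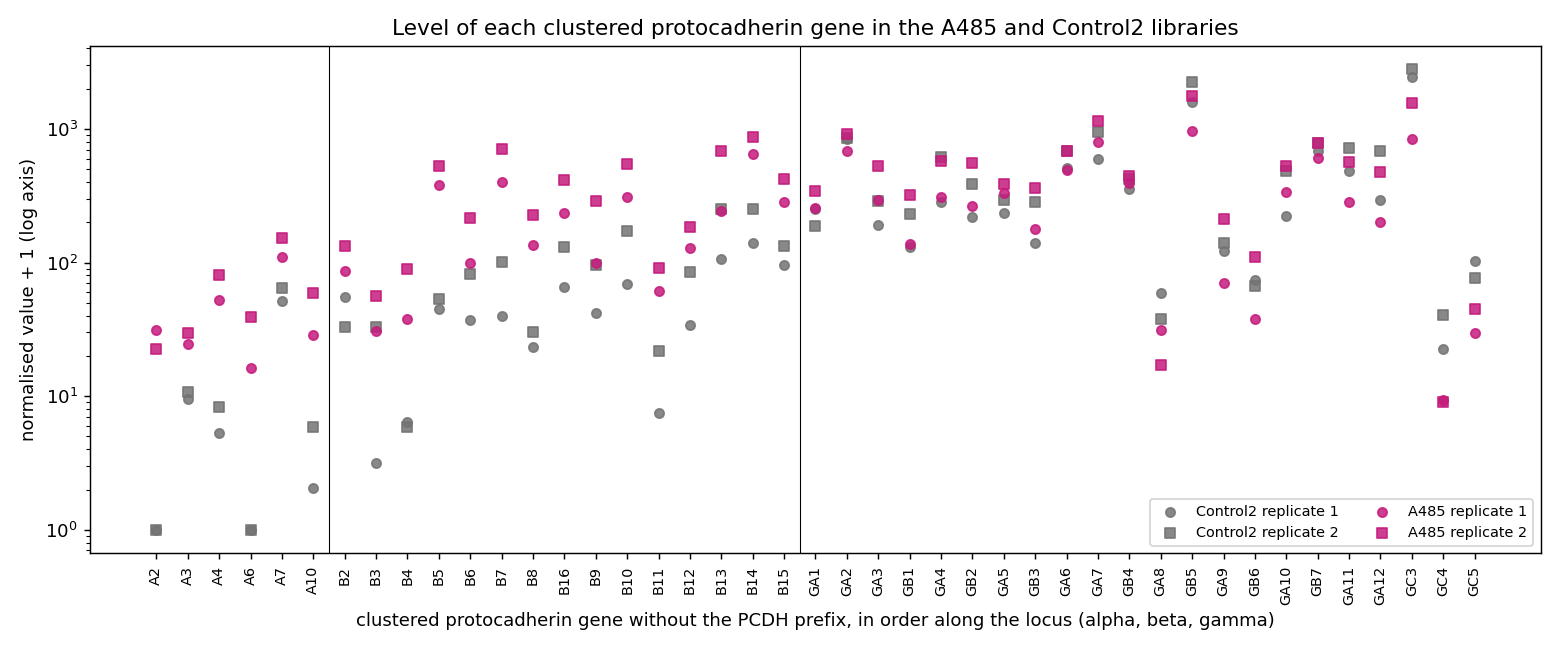
Normalised value plus 1 on a log axis for the 43 clustered protocadherin genes listed in the A485 table, ordered along the locus, with 1 point per library (2 Control2 libraries in grey, 2 A485 libraries in pink, circles for replicate 1 and squares for replicate 2) and vertical lines between the clusters. The A485 points lie above both controls for all 6 alpha genes and 13 of 15 beta genes, while most gamma genes overlap and PCDHGC3, PCDHGC4 and PCDHGC5 lie lower under A485.

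Among the gamma genes the 12 A-type genes had a median log2 fold change of -0.00 and the 7 B-type genes one of 0.11. PCDHGB5 was at 1603 and 2234 in Control2 and at 965 and 1750 under A485, so its groups overlapped. PCDHGA7 was at 595 and 953 against 799 and 1136, again with overlap. For the 3 C-type genes both A485 libraries lay below both controls. PCDHGC3 (ENSG00000240184, at 141475947 to 141512977) was at 2427 and 2809 in Control2 and at 841 and 1564 under A485, with a log2 fold change of -1.19 ± 0.31 (SE) and an adjusted p of 0.0595 by limma. It was the only gamma gene called by DESeq2 on the recovered reads, with an adjusted p of 0.00975. PCDHGC5 was at 102 and 75.9 against 28.7 and 43.6, with an adjusted p of 0.133. PCDHGC4 was at 21.4 and 39.2 against 8.43 and 8.02, with an adjusted p of 0.138. No member was called lower by limma or by edgeR, and at an unadjusted p under 0.05 the 3 C-type genes were the lower ones.

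Without a fit, 19 members, 6 alpha and 13 beta, had both A485 libraries above both controls and a log2 fold change past 1, against 8.93% of all genes tested. Without the members whose direction the filter fixed, 13 were left, PCDHA7 and 12 beta genes. In the other direction PCDHGA8, PCDHGC3, PCDHGC4 and PCDHGC5 were apart by the same measure, 4 of 43 against 13.1% of all genes, and 3 without PCDHGC4. The share of members lower lies below that background. The makeup of the family differed between the groups. Beta genes held 7.11% and 9.89% of the summed value in Control2 and 28.9% and 30.0% under A485. Gamma genes held 68.8% and 67.9% under A485, and PCDHGC3 alone went from 22.8% and 19.0% to 7.67% and 8.63%. The summed beta value was 757 and 1464 in Control2 and 3165 and 5445 under A485, a 3.88-fold difference of the means, while the summed gamma value was 9819 and 13257 against 7542 and 12303.

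**Figure D2:**
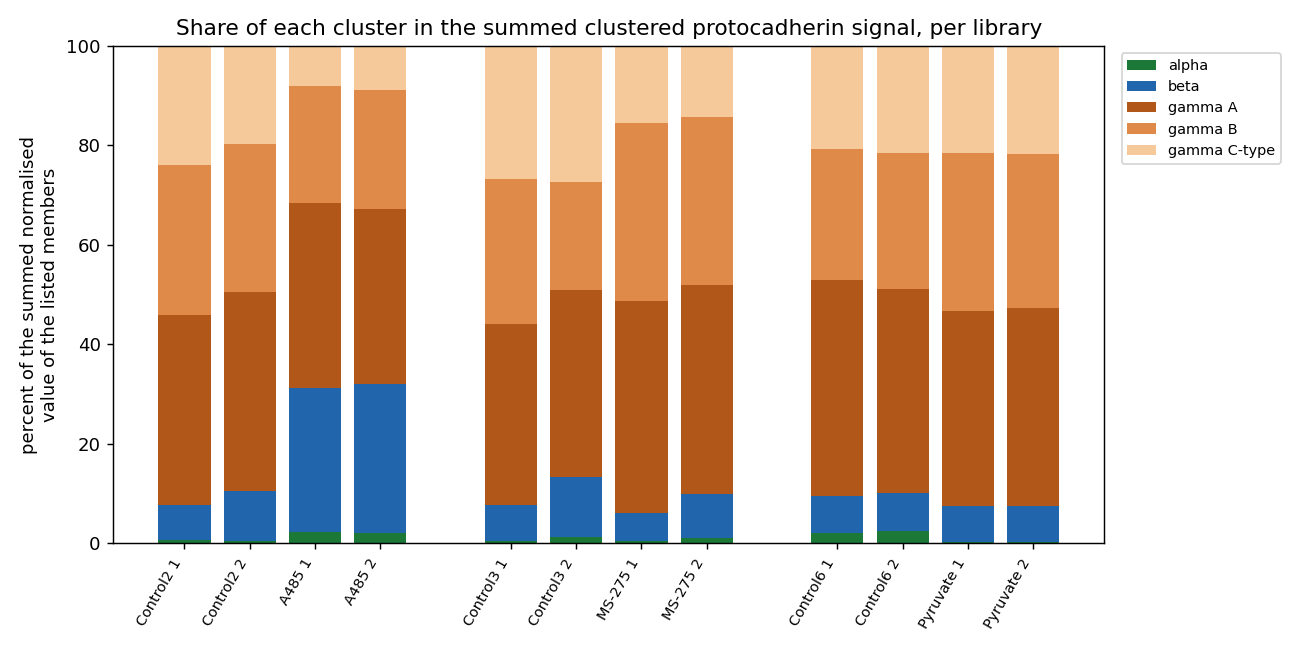
Percent of the summed normalised value of the listed members held by the alpha, beta, gamma A, gamma B and gamma C-type genes in each of the 12 IMR90 libraries, with 1 stacked bar per library and the replicate number after the group name. Beta genes hold 28.9% and 30.0% in the A485 libraries against 7.11% and 9.89% in Control2, and the C-type share is lower in both the A485 and the MS-275 libraries than in their controls.

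The A485 counts lean on every library. Without Control2 replicate 1 the number of members called higher was 2, without Control2 replicate 2 it was 3, and without either A485 replicate 1 or A485 replicate 2 it was 0. Fewer genes of any kind were called there, with 196, 106, 3 and 2 called higher over all genes in the same order. In each of these fits PCDHA7 and all 15 beta genes kept a positive log2 fold change. Scaling every library to the same total put the all-gene median at 0.40 and the share of higher among all calls from 31.9% to 64.6%, and quantile normalization moved that share to 42.6%. With equal totals the gamma median was 0.34, below the all-gene median, and 5 alpha and 10 beta genes were called higher.

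Fibroblast markers moved with A485. Of 12 markers 10 were called lower, and their summed value was 1862560 and 2244160 in Control2 and 556891 and 669564 under A485. DCN, PDGFRB, LUM and PDGFRA had the smallest adjusted p-values, and DCN, a matrix proteoglycan, fell by 4.50 on the log2 scale. Of 18 neuronal markers 11 were listed and 10 tested, with a median log2 fold change of -0.10. SYT1, a synaptic vesicle calcium sensor, was called higher, with a log2 fold change of 1.43, and none was called lower. Markers that were not called went both ways, with log2 fold changes of -4.22 for NEFM, -2.44 for SNAP25 and 1.29 for SYP. NEFM, at 5.06 and 1.78 under A485, entered the test only through its controls. The summed value of the neuronal markers was 2672 and 1739 against 2996 and 2613. SYT1 alone made up 639 and 684 of it in Control2 and 1735 and 1831 under A485. The neuronal markers RBFOX3, ELAVL3 and ELAVL4 were among those not listed. Of 10 epithelial markers 2 were listed, with 1 called higher (EPCAM) and 1 lower (KRT19). Of 8 endothelial markers 2 were tested and both were called lower (VWF and TEK), and neither of 2 immune markers was called. Their part in the protocadherin values was not tested. In bulk RNA, fewer cells of a type and less RNA per cell cannot be told apart.

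Genes around the clusters and related to them were counted from lists of their own. None of 18 tested neighbours on the same stretch of chromosome 5 (among them TAF7, DIAPH1 and HDAC3) was called under A485, with a median log2 fold change of 0.12. None of 23 genes for the architecture and silencing of the locus, including CTCF, the cohesin subunits and SMCHD1, was called, with a median of 0.06. The pseudogene PCDHB17P, inside the beta cluster, was at 0 and 0 in Control2 and at 11.8 and 28.5 under A485, and it was called higher but could enter the test only through A485. PCDHB18P was at 15.0 and 12.2 against 55.6 and 49.9 with an adjusted p of 0.0695. Of 6 protocadherins outside the clusters, PCDH18 was called lower, with values of 6299 and 12363 against 1369 and 985. Of 12 classical cadherins and catenins, 3 were called lower (CDH6, CDH15 and CDH4), of which CDH15 entered the test only through its controls, as did KRT19 and VWF among the cell type markers. Of 23 protocadherin partners and processing enzymes, CYFIP2, a subunit of the actin-regulating WAVE complex, was called higher and MARCKS, an actin-binding protein kinase C substrate, lower.

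Under MS-275 no member was called, and neither was any other of the 15883 genes tested, so that 0% were called in each direction by limma. That count of 0 over all genes depends on the fit. It was 220 higher and 267 lower in a shared fit of the 12 libraries. Without Control3 replicate 1 it was 292 and 98, without Control3 replicate 2 it was 270 and 149, and without MS-275 replicate 1 it was 10 and 2. No member was called in these 4 fits. With the replicate number fitted as a block the count over all genes was 1230 higher and 953 lower. In that fit 3 beta genes were called lower and 1 gamma gene in each direction. Without the block, at an unadjusted p under 0.05, there were 2 members, PCDHB5 and PCDHB7, and 1730 genes. Only PCDHA7 of the alpha genes passed the filter, at 67.4 and 76.8 in Control3 and at 50.4 and 59.8 under MS-275. PCDHA3 was listed at 14.9 and 14.1 against 8.71 and 0 and did not pass. The beta genes had a median log2 fold change of -0.66, with 10 of 14 below 0, and the gamma genes one of -0.11, against -0.01 for all genes. PCDHB11, 1 of these beta genes, passed the filter only through Control3 and had to be lower under MS-275. Without it the beta median was -0.61 over 13 genes.

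PCDHB5 was at 88.2 and 75.8 in Control3 and at 19.4 and 27.9 under MS-275, with a log2 fold change of -1.77 ± 0.46 (SE) and an adjusted p of 0.305. PCDHB7 was at 153 and 137 against 60.03 and 42.9, with a log2 fold change of -1.49 ± 0.42 (SE) and an adjusted p of 0.325. In both genes the 2 treated libraries lay below both controls, while under A485 they lay above. PCDHB14, the beta gene with the highest mean level, was at 183 and 111 against 93.0 and 51.8, and PCDHB10 at 123 and 95.0 against 76.5 and 66.8. PCDHB4, whose mean was under the filter, was at 21.8 and 13.1 in Control3 and at 0 and 1.99 under MS-275.

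In all 22 gamma genes replicate 1 stood above replicate 2 in both groups. PCDHGB5 was at 1845 and 630 in Control3 and at 1936 and 970 under MS-275, and PCDHGB7 at 1279 and 391 against 977 and 331. PCDHGC3 was at 3903 and 1907 in Control3 and at 1737 and 775 under MS-275, a log2 fold change of -1.23 ± 0.58 (SE) with an adjusted p of 0.576. PCDHGC4 stood at 14.9 and 3.03 against 16.5 and 4.98, and PCDHGC5 at 128 and 28.3 against 74.6 and 41.9, both with overlap. As a share of the family in each library, PCDHGC3 was 25.7% and 26.96% in Control3 and 14.7% and 13.4% under MS-275, so both treated libraries lay below both controls. The direction of the gamma median depended on single libraries. It was 0.54 without Control3 replicate 1, -0.71 without Control3 replicate 2, -0.52 without MS-275 replicate 1 and 0.33 without MS-275 replicate 2.

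With both MS-275 libraries apart from both controls and a log2 fold change past 1 in size, 0 members were higher against 8.52% of all genes, and 4 were lower (PCDHB5, PCDHB7, PCDHB14 and PCDHGC3) against 6.53% of all genes. Of the marker and related lists none had a called gene under MS-275. The 12 fibroblast markers summed to 1917160 and 890344 in Control3 and to 1832840 and 781317 under MS-275. Neuronal markers summed to 2568 and 1066 against 7268 and 3746, with a median log2 fold change of 1.17 over 11 tested. The neighbours of the locus had a median of 0.02 and the architecture and silencing genes one of -0.35.

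The difference between the A485 effect and the MS-275 effect was tested in a single fit of the 8 libraries. PCDHB5 had a difference of 4.96 ± 0.57 (SE) on the log2 scale with an adjusted p of 0.00677, and PCDHB7 one of 4.58 ± 0.75 (SE) with an adjusted p of 0.0213. These were the only 2 of 36 members tested in both that passed, both higher under A485, against 0.608% of 15130 genes higher and 3.2% lower. PCDHB14 came next, with a difference of 3.03 and an adjusted p of 0.0572. The median difference was 2.33 over 14 beta genes and -0.05 over 21 gamma genes, against 0.02 over all genes. For PCDHGC3 the difference was 0.05 ± 0.73 (SE), which does not show that the treatments act alike. Of the 14 beta genes 10 had an unadjusted p under 0.05 for the difference, and none of the 21 gamma genes did, against 2659 of all 15130 genes. PCDHB11, which counts among these 10 and in the beta median, had its MS-275 direction fixed by the filter, towards a higher difference. Without A485 replicate 1, A485 replicate 2 or MS-275 replicate 2 the number of members that passed was 1 in each case.

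**Figure D3:**
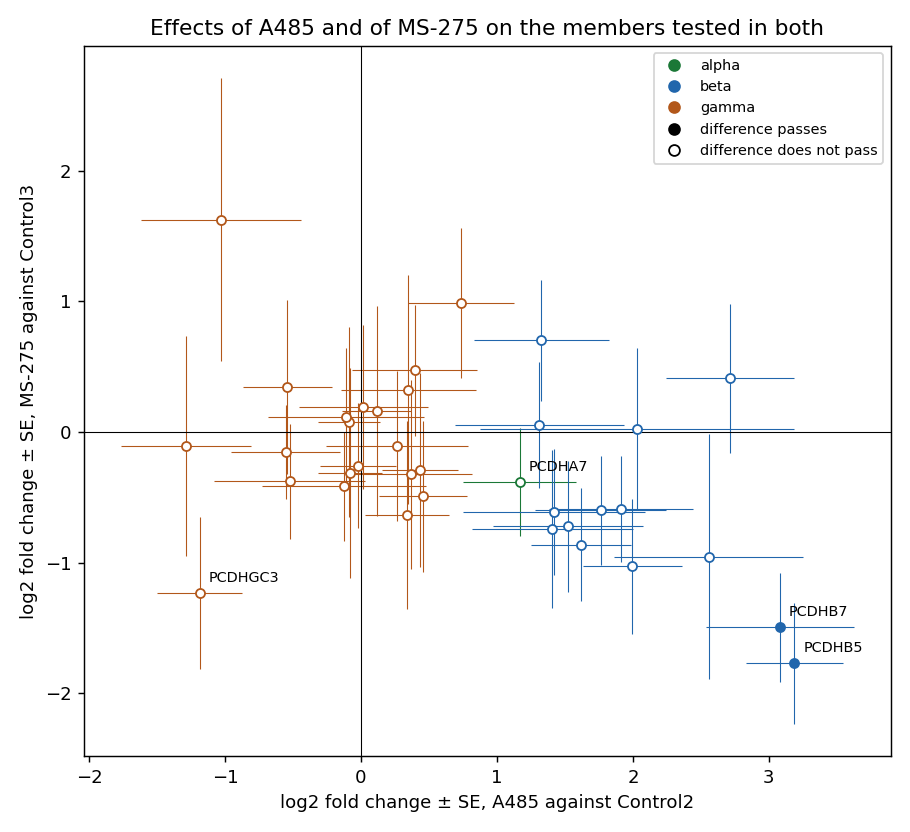
Log2 fold change under A485 (horizontal axis) against log2 fold change under MS-275 (vertical axis) for the 36 members tested in both, with SE bars, coloured by cluster and filled where the difference of the effects passed an adjusted p of 0.05. PCDHB5 and PCDHB7 sit at the lower right, higher under A485 and lower under MS-275, and PCDHGC3 sits at the lower left.

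Under pyruvate the listed members were mostly lower. By limma 9 members were called lower, PCDHA7, 4 of 11 beta genes (PCDHB2, PCDHB5, PCDHB13 and PCDHB16) and 4 of 19 gamma genes (PCDHGA2, PCDHGA4, PCDHGA7 and PCDHGC5), and PCDHGB4 was called higher. Over all 12013 genes 31% were called higher and 23.1% lower, so the share of members lower, 29.0%, lies near the background. The share higher, 3.23%, lies well under it. Without Control6 replicate 1 the calls were 3 higher and 7 lower, without Control6 replicate 2 they were 0 and 12, without pyruvate replicate 1 they were 0 and 8, and without pyruvate replicate 2 they were 2 and 8. By libraries apart and a log2 fold change past 1 the members' counts were the same, against 31.4% of all genes higher and 23.4% lower.

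PCDHA7 was at 242 and 235 in Control6 and at 22.6 and 20.3 under pyruvate, the largest change of the family there. Its log2 fold change was -3.42 ± 0.31 (SE), with an adjusted p of 9.9e-07. PCDHB2 was at 128 and 129 against 31.5 and 12.9, a log2 fold change of -2.61 ± 0.45 (SE). PCDHB13 was at 134 and 129 against 47.2 and 65.6, and PCDHB5 at 111 and 40.1 against 30.5 and 11.1, all without overlap. The lower Control6 value of PCDHB5 was near the higher pyruvate value, and its log2 fold change of -1.80 ± 0.61 (SE) had an adjusted p of 0.0182. That call was lost without Control6 replicate 1 (adjusted p of 0.181) and without pyruvate replicate 2 (0.0672). PCDHB14, which rose under A485, was at 55.99 and 54.3 in Control6 and at 67.8 and 55.4 under pyruvate.

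Of the gamma genes PCDHGA4 was at 899 and 640 in Control6 and at 170 and 174 under pyruvate, a log2 fold change of -2.14 ± 0.18 (SE) with an adjusted p of 4.77e-07. PCDHGA7 was at 1413 and 1086 against 326 and 307, a log2 fold change of -1.97 ± 0.14 (SE) with an adjusted p of 1.33e-07. PCDHGA2 was at 913 and 727 against 276 and 248, with a log2 fold change of -1.63, and the other 8 A-type genes listed were not called. Among them PCDHGA6 was at 234 and 125 against 378 and 278, and PCDHGA12 at 299 and 255 against 293 and 259. PCDHGC5 fell from 98.2 and 70.5 to 30.5 and 16.6, while PCDHGC3 was at 2400 and 2005 against 1304 and 1346, with a log2 fold change of -0.73 ± 0.10 (SE) that passed on p but not on size. PCDHGB4, the member called higher, was at 136 and 73.8 against 245 and 175, with a log2 fold change of 1.04 ± 0.31 (SE) and an adjusted p of 0.00832, and was not called without Control6 replicate 2 or without pyruvate replicate 1, where its log2 fold change was 0.61 and 0.80, under the size a call needs.

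The gamma share of the family was 90.6% and 89.8% in Control6 and 92.5% and 92.6% under pyruvate, and PCDHGC3 held 20.0% and 20.9% against 21.0% and 21.5%. The gamma median was -0.46 and the beta median -0.69 with the deposited scaling, which leaves all genes at -0.01. When a trend on gene length and GC content was removed the gamma median became 0.11 and the beta median -0.81. With equal library totals all genes moved to 0.30, the gamma median was -0.15, and the share of higher among all calls went from 57.3% to 71.7%.

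Of 23 architecture and silencing genes 16 were called higher and none lower, against 31% and 23.1% of all genes, and their median log2 fold change was 1.92. The smallest adjusted p-values were those of CBX5, RAD21, WAPL and ATF7IP. Removing the trend on gene length and GC content took the calls over all genes from 3726 higher and 2777 lower to 1897 and 1627. The architecture and silencing genes were not recounted in that fit. CBX5, which encodes the heterochromatin protein HP1 alpha, had a log2 fold change of 3.72, and RAD21, a cohesin subunit, one of 2.87. Of 15 neighbours of the locus 2 were called higher (IK and TAF7) and 4 lower (FCHSD1, HDAC3, NDUFA2 and RELL2). PCDH18 outside the clusters was at 244 and 222 in Control6 and at 4795 and 5000 under pyruvate. Of 10 cadherins and catenins 4 were called higher and 1 lower, and of 22 partners and processing enzymes 8 higher and 4 lower. With 31% of all genes called higher and 23.1% lower under pyruvate, the counts of these 2 lists say little about their genes. Fibroblast markers summed to 1277370 and 1187280 against 1020410 and 1031470, with 4 called higher and 1 lower, and of 6 neuronal markers 1 was called higher and 2 lower. Both tested endothelial markers were called, 1 in each direction. Their part in the protocadherin values was not tested.

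**Figure D4:**
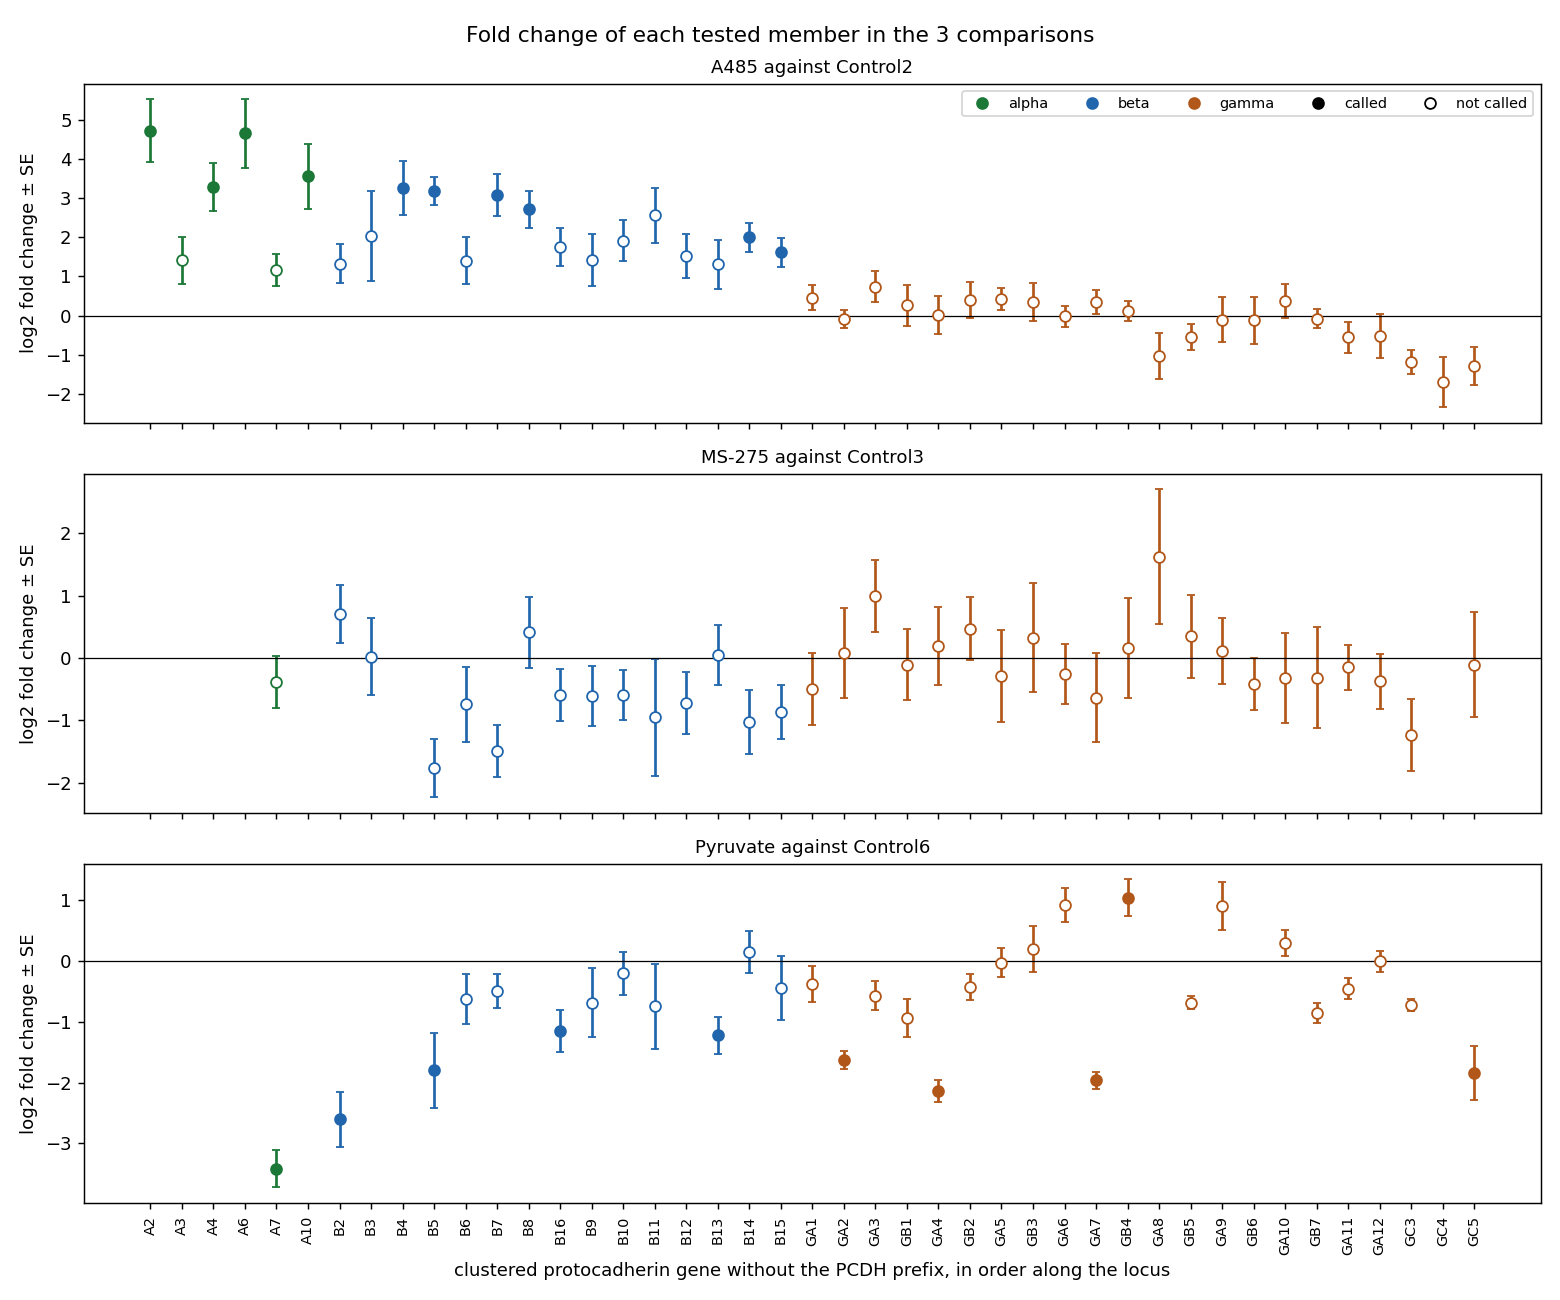
Log2 fold change with SE for each tested member in the 3 comparisons, ordered along the locus and coloured by cluster (filled points are called, open points are not). The 15 beta genes are above 0 under A485, with a median of 1.91, most beta genes are below 0 under MS-275, with a median of -0.66, and PCDHA7 has the lowest value under pyruvate, at -3.42. The filter fixed the direction of PCDHB4 under A485 and of PCDHB11 under MS-275. Without these genes the beta medians are 1.84 and -0.61.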

How the data were processed

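IMR90 RNA-seq libraries were analysed (12 of the 20 libraries of the series, the 8 muscle libraries were not used). Per the paper's methods, the authors trimmed reads with Trim Galore 0.6.10, aligned them to hg38 with HISAT2 2.2.1, counted them per gene with featureCounts 2.0.6 and normalized them with DESeq2 1.34.0. The deposited values are therefore a signal, counts divided by a size factor for each library. All values were whole multiples of a step for each library, within 0.01 reads. Reads recovered from these gave the counted reads of all 12 libraries and were used in count tests for A485 and Control2 only. The strand setting, annotation and treatment of multi-mapping reads in the counting are not given in the sources used here. The 3 tables were normalized separately and tested within each table.

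A gene entered the test where its mean in a comparison's 4 libraries reached 10, and values were compared as log2(value + 1) with limma 3.58.1 (intensity trend, Benjamini-Hochberg adjustment over all genes tested). edgeR 4.0.16 and DESeq2 1.42.0 were run on the recovered A485 and Control2 reads. Named members were, per cluster and comparison, the 3 largest called rises and falls, or the 3 highest by mean level where fewer than 3 were called, plus the C-type genes. Of each list up to 4 called genes by adjusted p were named. Other members were named after their values were seen. The members and gene lists were chosen with earlier results of these data known. On simulated data with 200 changed genes at a log2 fold of 2, limma recovered 92% for A485, 82.5% for MS-275 and 100% for pyruvate. The simulated libraries were independent of each other, with 1 level of spread for all genes and no replicate difference common to both groups. The recovered shares therefore check the code and do not carry over to the real libraries, least of all those of MS-275. The alternatives were other pseudocounts, filters, normalizations, count tests, a shared fit, the replicate block, a length and GC trend and leaving out each library. Analyses used R 4.3.3 and Python 3.11.15.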

Additional observations from a re-analysis of the deposited data

How the results depend on the processing

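With 10 members called higher under A485, the count was 5 with a filter at a mean of 50, 6 without the intensity trend and 0 to 3 with a library left out. Of calls lower, 0 became 1 with DESeq2 and 1 with the length and GC trend removed. Under pyruvate the 1 higher call became 0 with a pseudocount of 10, with quantile normalization, without the intensity trend and in the shared fit, 3 with equal totals, and 2 with a fold minimum of 0.58, with none or with the trend on length and GC removed, and 0 to 3 with a library left out. The 9 lower calls became 15 with quantile normalization and 15 without a fold minimum, and 7 to 12 with a library left out. Leaving out a library gave 1 to 2 for the difference of effects and 0 in both directions for MS-275.

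Counts of members apart under A485 were 12 higher and 2 lower with the filter at 50, and 1 lower with equal totals. Under MS-275, 1 was higher with quantile normalization. Under pyruvate the higher count was 0 with a pseudocount of 10, 0 with quantile normalization and 3 with equal totals, and the lower count was 15 with quantile normalization.

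Log2 ratios of cluster sums moved by more than 1 SD in these cases. As a share of all values or with equal totals, which are the same, alpha was 2.46 under A485, -0.68 under MS-275 and -3.17 under pyruvate, where beta was -0.57 and gamma -0.44. With quantile normalization alpha was -0.67 under MS-275, and alpha, beta and gamma were -3.87, -1.38 and -0.97 under pyruvate. With a library left out the A485 ratios were 1.80 to 2.34 for alpha, 1.504 to 2.46 for beta and -0.60 to 0.11 for gamma. The A485 alpha sums include 5 genes that the filter kept only for their A485 level. Those of MS-275 were -0.61 to -0.47, -0.91 to -0.54 and -0.88 to 0.31, and those of pyruvate -3.55 to -3.40, -1.01 to -0.75 and -0.92 to -0.58.

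Replicate numbers were shared between groups, but the labels do not say that they pair the libraries. With 2 pairs in a comparison the values cannot settle it. Deviations of same-numbered libraries correlated at 0.32 for A485, 0.73 for MS-275 and 0.002 for pyruvate across genes. For MS-275 much of the replicate difference was thus common to both groups, and the fit without the block counts it as spread. With the replicate block 17 members were called higher and 1 lower under A485, also with the length and GC trend removed and with edgeR. Under MS-275 the block gave 1230 genes higher and 953 lower where the fit without it gave 0, and 1 member higher and 4 lower, or 2 and 4 with the trend removed, and under pyruvate with the trend removed 2 higher. Within each experiment the block gave 15 members for the difference of effects.

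The cause of these shifts was not tested, and no called result changed direction, while the gamma sums of A485 and MS-275, which were not called, had either sign. The edgeR block, the normalizations and left-out libraries for sums, and those for members apart were chosen after seeing the data. Count tests for MS-275 and pyruvate, and edgeR for the difference of effects, were not run. With 2 libraries in a group and no replicate block, a change smaller than the spread of members such as the gamma genes under MS-275 was not detectable here. With the block 1 gamma gene was called in each direction under MS-275.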
